A study of Mus musculus with 19 samples.

Results

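The comparison described here sets 5 control libraries from embryonic stem cells differentiated by withdrawal of LIF against 2 control libraries from a retinoic acid (RA) neural culture, 7 of the 19 RNA-seq libraries of the series. The libraries were taken by label: every library with the control hairpin (shCtrl), and no knockdown. The comparison itself was chosen with earlier results of these data known. The LIF-withdrawal arm holds 1 library of the line CJ7 at day 4 and 4 of the line CJ9, at day 4, at day 5 (2 libraries) and at day 6. Both lines are labelled with the strain 129S4/SvJae, and they were kept in medium with 15% heat-inactivated fetal calf serum and no LIF, the cytokine that holds mouse embryonic stem cells undifferentiated. The RA arm holds 2 libraries of the line 46c, a reporter line in which green fluorescent protein replaces the coding sequence of 1 copy of Sox1, at day 4 in the serum-free neural medium N2B27 with 5 nM RA. Line, medium, serum and RA therefore change together between the arms, and day does in part, so their contributions cannot be told apart. The other 12 libraries carry hairpins against 6 long non-coding RNAs, named for or lying beside Evx1, Foxf1, Lhx1, Nr2f1, Sox21 and Pou3f3, or against the coding gene Evx1, and are used below only as further libraries of each culture.

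Mouse embryonic stem cells that lose LIF in serum pass through an epiblast-like state and many enter a primitive-streak program under Wnt, Nodal and BMP signals from the cells themselves and from serum. In N2B27, which lacks such signals, the same cells turn to neural plate. RA enters cells, is carried by the binding proteins Crabp1 and Crabp2, and acts through the receptors Rara, Rarb and Rarg, which bind DNA with Rxr partners at paired half-sites. In the embryo it gives the neural plate hindbrain and anterior spinal identity, largely through the anterior Hox genes, and Cyp26 enzymes break it down.

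Values are FPKM, which divide the fragments of a gene by its transcript length and by the size of the library, so levels are comparable between genes. Below, the 5 LIF-withdrawal values of a gene are listed in the order CJ7 day 4, CJ9 day 4, both CJ9 day-5 libraries and CJ9 day 6, and the RA values in the order control 1, control 2. Differences are means of log2(FPKM + 1) in the RA arm minus the LIF-withdrawal arm, in log2 units with the standard error of the fit. A gene is called when limma's moderated test, adjusted over all 13859 entries kept, gives an adjusted p under 0.05. A single gene tested by exact permutation of 5 against 2 libraries could not go below a two-sided p of 0.0952. In bulk RNA, fewer cells of a type and less RNA per cell cannot be told apart.

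The 7 libraries had between 12255 and 12825 entries at 1 FPKM or more, and depth relative to RA control 1, read from the steps between low values, was 0.893 to 1.19. In RA control 2, 65 entries stood 2-fold or more below the lowest of the other 18 libraries, among entries with at least 5 FPKM in all of these, against 6 in RA control 1 and 0 to 4 in the LIF-withdrawal controls. The other 18 include the other RA control, so an entry low in both RA controls can count only for the lower of them. The 6 therefore do not show that RA control 1 was free of such low values. Those 65 include genes counted below (Eef1a1, B2m, Krt19, Rps25, Magoh, S100a11, Acta2 and Thbs1). For Eef1a1, B2m, Rps25, Magoh and S100a11 the lowest of the other 18 was RA control 1. Genes of the undifferentiated state were higher in RA control 2 than in control 1. The LIF-withdrawal control of day 6 had 65 entries of at least 5 FPKM that stood 2-fold or more above every other library, against 0 to 4 in the other controls. It held the highest value of the 7 for Hand1, Cdx2, Krt7, Ascl2 and Igf2 below. Without it 5400 entries were called, and Hand1 (-5.16), Cdx2 (-3.90), Krt7 (-4.06) and Ascl2 (-2.02) were still called lower, while Bmp4, Etv2, Sesn2, Twist1 and Zfp42 were no longer called.

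Of the 13859 entries, 2901 were called higher in the RA arm (20.9%) and 2648 lower (19.1%), with 3055 of these past a 2-fold difference. Every RA value lay above every LIF-withdrawal value in 28.3% of entries, and below in 26.5%. The median difference over all entries was -0.0096. Since the RA arm has 2 libraries and an entry was kept when 2 of the 7 reached 1 FPKM, a gene seen only in the RA arm was kept through those libraries alone (418 entries, against 1336 kept with less than 1 FPKM in both RA controls), and counts of kept members are a description. Calls in either direction thus covered 40.0% of entries, against which the list counts below are to be read. Without RA control 1 the fit called 2675 entries, and without RA control 2 it called 2449, against 5549 with both.

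The 4 markers followed the labels. Sox1 (chr8:12395519-12399555 in mm9, the coordinates of the deposited table), the earliest neural plate transcription factor, stood at 0.986, 0.518, 0.237, 0.249 and 0.242 FPKM after LIF withdrawal and at 94.1 and 83.7 FPKM with RA. Pax6 (chr2:105509053-105537521), a neural progenitor factor, read 0.542, 0.183, 0.273, 0.0386 and 0.197 FPKM against 89.8 and 65 FPKM. Both were near 0 in all 5 LIF-withdrawal libraries and abundant in both RA libraries, a difference of 5.98 ± 0.24 for Sox1 (limma adjusted p 5.73e-06) and 5.97 ± 0.22 for Pax6 (adjusted p 5.73e-06).

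T (chr17:8627288-8635361), the streak and early mesoderm factor brachyury, read 143, 326, 114, 128 and 20.9 FPKM after LIF withdrawal and 1.66 and 0.637 FPKM with RA. It was highest in CJ9 at day 4 and lowest at day 6, and the arms did not overlap (difference -5.71 ± 0.84, limma adjusted p 0.00136). Hand1 (chr11:57642215-57645649), a factor of lateral and extraembryonic mesoderm, went the other way in time within LIF withdrawal, with 6.17, 13.7, 118, 142 and 204 FPKM, against 0.0502 and 0 FPKM with RA. Its difference was -5.66 ± 1.26 (limma adjusted p 0.00883). The spread over days is large for Hand1, and with only 1 of the 2 RA controls in the fit the difference is as large (-5.62 or -5.69) but not called.

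**Figure D1:**
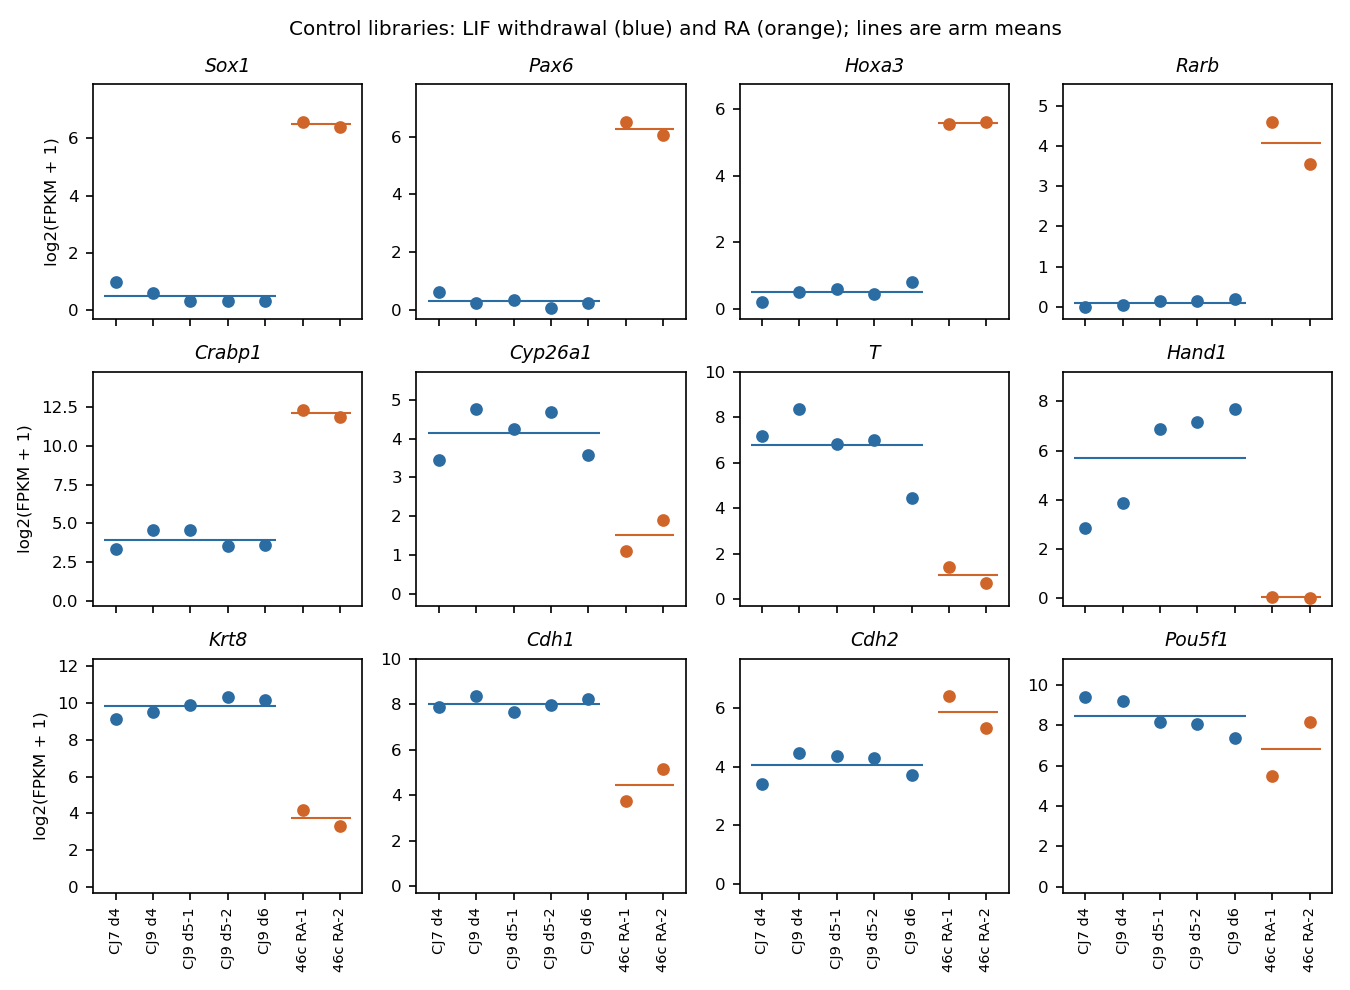
Level of 12 genes in the 7 control libraries, as log2(FPKM + 1) on the y axis, with 1 point per library (blue, LIF withdrawal; orange, RA) and the mean of each arm as a line. Sox1, Pax6, Hoxa3, Rarb and Crabp1 are high only in the orange points, T, Hand1 and Krt8 only in the blue, and the 2 orange points of Pou5f1 lie far apart.

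Neural plate and progenitor genes were higher in the RA arm. Of 21 listed, 18 were kept, 16 were called higher and 0 lower, with a median difference of 2.60. Sox2, shared by pluripotent and neural cells, read 69.7, 36, 50.4, 34.9 and 48 FPKM against 169 and 196 FPKM. It was thus well expressed in both cultures and 3.82 times higher with RA by the ratio of arm means. Sox21, a repressor of the same family, was almost absent after LIF withdrawal (0.0689 to 0.421 FPKM) and stood at 26.3 and 29 FPKM with RA. Zic1, a dorsal neural factor, read 1.59, 0.124, 0.105, 0.0289 and 0.102 FPKM against 42.7 and 26.6 FPKM, with its one LIF-withdrawal value above 1 FPKM in CJ7. Nr2f1, an orphan nuclear receptor of the hindbrain and cortex, read 0 to 0.117 FPKM in the LIF-withdrawal libraries, 21.4 and 16.4 FPKM with RA, and differed by 4.22 ± 0.18 (limma adjusted p 5.73e-06). Nes, the progenitor intermediate filament nestin, and Pou3f1 were not called (1.29 and -0.68), and their arms overlapped. Fabp7, Lhx5 and Hesx1 stayed below the filter.

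Dorsoventral factors of the neural tube gave 8 of 10 kept members (15 listed) higher and 0 lower. The largest differences belonged to Irx5 and Irx3, factors of the intermediate neural tube: Irx5 read 0.776, 1.54, 0.659, 0.373 and 0.439 FPKM against 50.3 and 33.4 FPKM, and Irx3 1.28, 3.31, 1.51, 1.08 and 5.8 FPKM against 85.4 and 70.3 FPKM. Dbx1, which marks the ventral interneuron domain, was at 0 in 3 LIF-withdrawal libraries and at most 0.0487 FPKM in the others, and read 15.9 and 15.5 FPKM with RA. The dorsal factors Msx3 (12.2 and 7.83 FPKM), Pax3 (3.91 and 2.49 FPKM) and Pax7 (1.65 and 1.66 FPKM) were called higher at lower levels. Olig2 and Nkx2-2, factors of the most ventral progenitors, did not exceed 0.0760 FPKM in either RA control, though Nkx2-2 read 2.72 FPKM in CJ7. Nkx6-1, a broader ventral factor, was called higher (1.69, with 2.11 and 5.93 FPKM). The other kept members, the ventral factors Nkx6-2 (3.9, 1.27, 2.73, 2.37 and 3.37 FPKM against 1.01 and 4.32 FPKM) and Nkx2-9 (6.0, 1.33, 0.437, 1.31 and 0.515 FPKM against 0.733 and 1.32 FPKM), were not called, and their arms overlapped.

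Along the head-to-tail axis, 10 of 16 patterning genes were kept, 8 were called higher and 0 lower, and the largest differences included those of Irx2 (3.87), Pax2 and Gbx2. Pax2, a factor of the midbrain-hindbrain border and of spinal interneurons, read 0.151, 0.138, 0.161, 0.0805 and 0 FPKM against 15.3 and 11.6 FPKM, a difference of 3.70 ± 0.19 (limma adjusted p 8.74e-06). Egr2, also known as Krox20 and active in hindbrain rhombomeres, read 0.840, 0.908, 0.270, 0.247 and 0.194 FPKM against 6.52 and 4.38 FPKM. Gbx2, which sets the anterior edge of the hindbrain, was low but present after LIF withdrawal (1.61, 4.94, 2.59, 3.2 and 1.84 FPKM) and read 33.4 and 58.2 FPKM with RA. Otx2, its forebrain and midbrain counterpart that the epiblast also expresses, read 25.6, 14.2, 11.4, 6.61 and 4.27 FPKM after LIF withdrawal, lower at later days, and 2.07 and 11 FPKM with RA, so the arms overlapped (-0.92, adjusted p 0.295). The forebrain genes Six3, Otx1 and Rax stayed below the filter, but Lhx2 (2.08 and 3.01 FPKM with RA) and Emx2 (1.33 and 1.06 FPKM), which the forebrain uses, were called higher at these low levels. Wnt1, expressed at the midbrain border and in dorsal neural tube, was listed at 0 in all 5 LIF-withdrawal libraries but read 7.81 FPKM in RA control 1 and 0.782 FPKM in control 2, which also left it below the filter.

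Neurogenic genes were higher at modest levels. Among 18 proneural and Notch genes, 14 were kept, 9 were called higher and 1 lower. Dll1, a Notch ligand, read 0.997, 2.16, 1.65, 0.915 and 0.741 FPKM against 18.8 and 21 FPKM (3.22 ± 0.26, limma adjusted p 8.51e-05), while the related Dll3, a ligand of presomitic mesoderm, was the lower one (6.1 to 12.1 FPKM against 2.21 and 1.69 FPKM). Neurog2, a proneural factor, was below the filter. The 20 neuronal genes gave 12 kept, 7 higher and 2 lower. Tubb3, the neuronal tubulin, read 14.9, 10.1, 3.94, 6.08 and 4.02 FPKM against 48.6 and 49.7 FPKM. The summed level of the list was 108 to 539 FPKM after LIF withdrawal and 230 and 236 FPKM with RA. The lower pair, neuronal genes as well, went against the 7 higher ones. Stmn2, a microtubule regulator, read 107, 140.3, 129, 128 and 58.9 FPKM after LIF withdrawal and 42.1 and 34.3 FPKM with RA. The neurofilament Nefm read 23, 33.8, 12.2, 14.9 and 4.31 FPKM against 1.94 and 2.61 FPKM. In the RA knockdown libraries Stmn2 stood at 73.4 to 140.0 FPKM, within the LIF-withdrawal range. Its culture difference was not called among the knockdown libraries (-0.16, limma adjusted p 0.506). The gap between that difference and the one in controls was not called either (limma interaction adjusted p 0.190). Dcx, a marker of migrating neurons, was near 0 in all 7 libraries.

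Most kept genes of RA transport and sensing were higher, and 4 of them (Crabp1, Crabp2, Stra6 and Stra8) were among the 12 largest rises of the table. Of 23 listed, 18 were kept, 14 were called higher and 2 lower, with a median difference of 2.02. Crabp1 had the largest rise of all 13859 entries, with 9.07, 22.5, 23.4, 10.5 and 11.3 FPKM after LIF withdrawal and 5098 and 3697 FPKM with RA, a difference of 8.16 ± 0.38 (limma adjusted p 7.17e-06). Crabp2 read 7.01, 9.51, 15, 18.5 and 18.7 FPKM against 1904 and 1034 FPKM. Both carriers were present in every LIF-withdrawal library, and their RA means were 286 and 107 times higher. Stra6, which mediates uptake of retinol, read 0.480, 0.506, 0.258, 0.248 and 0.279 FPKM against 52.6 and 44.1 FPKM, and Stra8, a germ-cell gene that RA induces in many cells, 0.153, 0.592, 0.333, 0.0733 and 0.115 FPKM against 40.5 and 108 FPKM.

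Among the receptors, Rarb was listed at 0 in CJ7 and at no more than 0.139 FPKM in the CJ9 libraries, and read 23.5 and 10.7 FPKM with RA (3.98 ± 0.27, limma adjusted p 3.89e-05). Rara was expressed in both arms and higher with RA (16.4, 12.4, 16.3, 16.3 and 19.5 against 55.1 and 72 FPKM), while Rarg overlapped (-0.39, adjusted p 0.453), with 20.0 and 58.1 FPKM in the RA controls. The Rxr partner Rxra was higher (1.97). Dhrs3, which turns retinaldehyde back to retinol, read 5.17, 3.92, 4.24, 1.72 and 4.37 FPKM against 20.1 and 18.3 FPKM. Meis1 and Meis2, homeodomain partners of Hox proteins, were both called higher (3.63 and 4.34).

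Cyp26a1, the RA-degrading enzyme and itself a known RA-induced gene, went the other way. It read 10.0, 26.3, 17.9, 24.5 and 11 FPKM after LIF withdrawal and 1.16 and 2.75 FPKM with RA, so that both RA values lay below all 5 others (-2.64 ± 0.41, limma adjusted p 0.00175), and it stood at 1.34 to 3.33 FPKM in the RA knockdown libraries. Cyp26b1 and Cyp26c1 were at no more than 0.429 FPKM in any control, and the RA-making Aldh1a1, Aldh1a2 and Aldh1a3 stayed below the filter. Rdh10, which makes retinaldehyde, was the other lower member (-1.02, adjusted p 0.0384).

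Rarb and Cyp26a1 are shown side by side because, among the promoters searched, they alone of the listed RA and anterior Hox genes hold a match to the classical RA response element, yet their levels differed in opposite directions. The search used 2 direct half-sites (AGGTCA or its variant AGTTCA, each also with a G as the first letter) with a 5-base or a 2-base spacer, on both strands, in RefSeq promoter windows of GRCm38.p6 running from 250 bases before to 50 after each start. The 5-base form was found in 31 of 27025 genes with a window (0.115%), and in 2 of the 18 RA pathway genes that had one. The 2-base form was found in 0.311% of all genes and in none of those 18, nor was either form found in the 9 Hox genes of groups 1 to 5 with a window. Capitals mark the matched element, 5′ to 3′ on the strand of the gene, in stretches that end before the start.
Rarb (chr14:16575483-16575559, minus strand): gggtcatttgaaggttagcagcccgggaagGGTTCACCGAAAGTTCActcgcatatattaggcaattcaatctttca
Cyp26a1 (chr19:37697746-37697807, plus strand): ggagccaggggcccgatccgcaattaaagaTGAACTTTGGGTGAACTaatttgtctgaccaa
The element begins 53 bases before the start of Rarb, in the sense direction, and 32 bases before that of Cyp26a1, in the antisense direction. A match is a description of letters and does not show that a receptor binds there in these cells.

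The anterior Hox genes were higher in the RA arm almost as a block. All 15 listed members of groups 1 to 5 were kept and 14 were called higher, with a median of 3.94, the largest median of any list. Hoxb1, among the first Hox genes that RA switches on, was already detectable after LIF withdrawal (1.12, 4.86, 0.908, 1.41 and 0.918 FPKM) and read 19.2 and 40.4 FPKM with RA. Genes of groups 2 to 5 were below 1 FPKM in every LIF-withdrawal library, except Hoxc4 (0.294 to 1.98 FPKM): Hoxa3 read 0.142, 0.407, 0.513, 0.350 and 0.733 FPKM against 46.1 and 48.2 FPKM, Hoxd3 0.0175, 0.112, 0.153, 0.118 and 0.357 FPKM against 79.7 and 41.5 FPKM, and Hoxa4 0, 0, 0.220, 0.0692 and 0.326 FPKM against 33.7 and 26.2 FPKM. Hoxa3 differed by 5.09 ± 0.21 (limma adjusted p 5.73e-06). Hoxd1 was the exception at 0.275 to 1.32 FPKM against 1.1 and 0.854 FPKM.

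The posterior Hox genes followed only in part. Of 20 genes of groups 6 to 13, 12 stayed below the filter and 8 were kept. Of these 8, 4 were called higher and 1 lower, with a median of 0.45. Hoxb8 (0.155, 0.284, 0.644, 1.23 and 1.07 FPKM against 10.7 and 16.9 FPKM) and Hoxb7 (2.48) were higher with RA, with Hoxa7 (0.81) and Hoxb6 (1.46) called at smaller values. Hoxb6 had overlapping arms and stood at 0.160 to 0.711 FPKM in the RA knockdown libraries, no higher than in the LIF-withdrawal controls. Hoxd9 was lower: 1.33, 0.663, 2.54, 2.31 and 6.85 FPKM against 0.179 and 0.0853 FPKM. Hoxa9, Hoxa10, Hoxc10, Hoxd10 and Hoxa13 were listed at 0 in both RA controls, and the LIF-withdrawal libraries had up to 1.32 FPKM of them (Hoxc10, day 6). The gain in the RA arm was thus largest in groups 1 to 5, was called for Hoxa7, Hoxb6, Hoxb7 and Hoxb8 in groups 6 to 8, and for no member from group 9 on (Hoxb9 0.10, adjusted p 0.804).

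**Figure D2:**
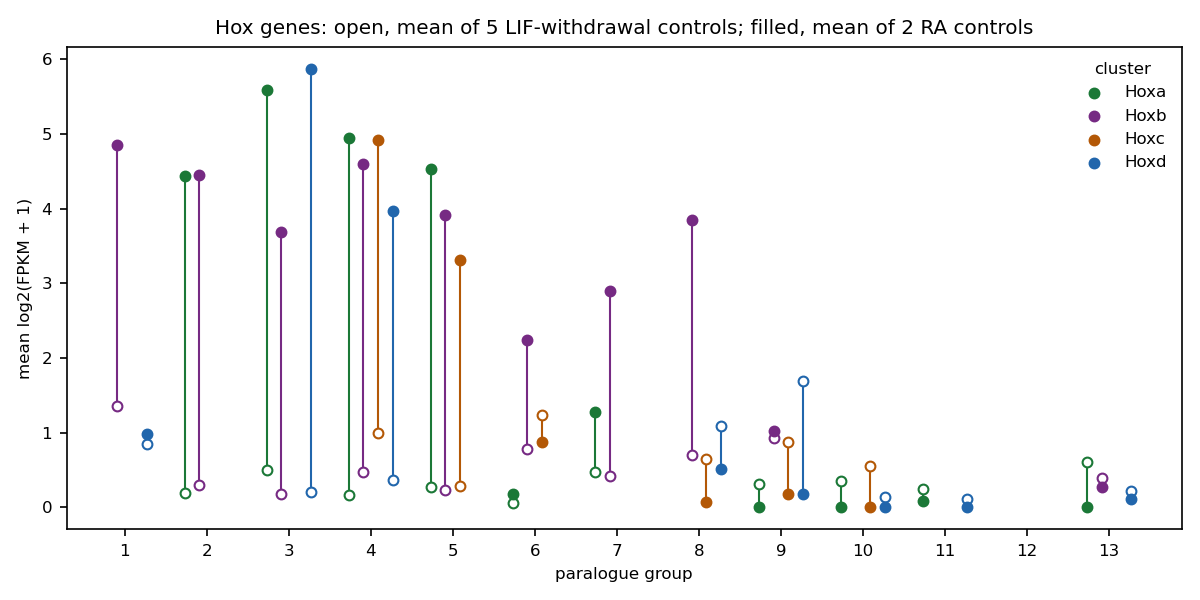
Mean log2(FPKM + 1) of Hox genes on the y axis, 1 line per gene shown, by paralogue group on the x axis, coloured by cluster, with the mean of the 5 LIF-withdrawal controls as an open circle joined to that of the 2 RA controls as a filled circle. Filled circles stand far above open ones in groups 1 to 5 except Hoxd1, and at or below them from group 9 except Hoxb9, where they almost coincide.

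Primitive streak and presomitic mesoderm genes were the mirror image. Of 24 listed, 23 were kept, 16 were called lower in the RA arm and 1 higher, with a median of -2.66. Mixl1, a streak homeobox gene, read 19.7, 82.1, 39.3, 48.5 and 11.1 FPKM against 0.285 and 0.252 FPKM. Eomes, which drives mesoderm and endoderm entry, read 40.6, 79.6, 49.7, 38.6 and 13.9 FPKM against 0.531 and 1.02 FPKM, and the Wnt target Sp5 168, 249, 62.1, 58.7 and 27.8 FPKM against 1.88 and 3.05 FPKM. For these 3 CJ9 at day 4 was highest, day 6 was lowest, and the day-6 value was still above both RA values. Evx1, a homeobox gene of the posterior streak, differed by -3.78 ± 0.64 (limma adjusted p 0.00264) and Tbx6, low throughout, by -1.05. Tbx6 was not called between the knockdown libraries (0.039, limma adjusted p 0.913), with 0.787 to 1.71 FPKM in those of RA. Wnt3a was the member that was higher with RA (0.242 to 0.875 FPKM against 4.81 and 2.18 FPKM), a gene of the streak that the dorsal neural tube also uses. Wnt8a overlapped, with 15.7, 12.9, 4.59, 3.34 and 1.31 FPKM against 14 and 36.9 FPKM, and its RA values included the highest of the 7. Cdx2, a caudal and trophoblast factor, read 6.41, 14.7, 22.5, 27.1 and 44.3 FPKM against 0.0875 and 0.146 FPKM and so was highest at day 6.

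Lateral and cardiac mesoderm genes were lower in part: 8 of 19 kept members (23 listed) were called lower and 1 higher. Gata4 read 8.81, 16.4, 25.5, 19.6 and 33.3 FPKM against 1.35 and 1.7 FPKM and Tbx20 2.84, 1.84, 8.48, 8.42 and 15 FPKM against 0.0698 and 0 FPKM, and both, like Hand1, were higher at days 5 and 6 than at day 4. Bmp4 read 5.84, 9.05, 42.2, 39 and 60.7 FPKM against 3.52 and 2.44 FPKM, a called difference (-2.58, limma adjusted p 0.0366) set mainly by the day-5 and day-6 libraries. Foxf1 was not called (-2.17, adjusted p 0.0680), with 0.341, 2.46, 10.1, 10.9 and 11.5 FPKM against 0.344 and 0.309 FPKM. Without the CJ7 library, whose value lay between those of the RA controls, the difference was -2.71 (limma adjusted p 0.00532). Twist1, a mesenchymal factor, was the higher member (1.11), but it stood at 4.88 to 8.34 FPKM in the RA knockdown libraries and was not called between cultures there (-0.044).

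Endoderm and organizer genes gave 4 lower and 0 higher of 12 kept (14 listed). Foxa2 and Sox17 overlapped (0.07 and -1.17). Gata6 read 5.06, 7.89, 8.15, 7.34 and 9.54 FPKM against 0.580 and 0.727 FPKM. Krt19, a keratin of simple epithelia, read 160.1, 216, 283, 269 and 217 FPKM against 6.43 and 2.68 FPKM (-5.43) and 5.92 to 16.6 FPKM in the RA knockdown libraries. The other lower genes were Prdm1 (-1.14) and the BMP antagonist Nog (-1.67).

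Epithelial genes were lower in the RA arm. Of 18 surface ectoderm and simple epithelium genes, 14 were kept, 11 were called lower and 0 higher, with a median of -2.48. Krt8, the keratin of simple epithelia, read 560.0, 730.5, 938, 1287 and 1148 FPKM after LIF withdrawal and 17.3 and 8.93 FPKM with RA (-6.05 ± 0.35, limma adjusted p 1.61e-05), and its partner Krt18 449, 579.8, 692, 1113 and 1195 FPKM against 52 and 28.9 FPKM. The tight-junction claudins Cldn6 (302, 239, 238, 301 and 256 FPKM against 7.47 and 15.5 FPKM) and Cldn7 (95.4, 107, 90.9, 88 and 115 FPKM against 1.47 and 4.78 FPKM) barely varied among the LIF-withdrawal libraries. Among markers of stratified epithelium, Trp63 and Krt5 stayed below the filter in both arms, and Krt14 (0.523 to 8.54 FPKM against 0.0585 and 0 FPKM) and Krt17 (-1.26) were called lower at low levels. Tfap2a, a surface ectoderm and neural crest factor, read 4.06, 8.95, 5.1, 11.9 and 13.6 FPKM against 0.558 and 0.806 FPKM.

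In the RA knockdown libraries Krt8 stood at 23.8 to 56.6 FPKM and Krt18 at 55.4 to 82 FPKM, above the RA controls but far below LIF withdrawal. The 12 largest falls in the table among genes with regular names held, beside the keratins, other genes abundant in epithelia, among them S100a11, a calcium-binding protein (610.0, 791, 1562, 2015 and 1529 FPKM against 15.7 and 4.55 FPKM), Sfn, the epithelial 14-3-3 protein (466, 560.1, 291, 301 and 150.1 against 2.72 and 5.21 FPKM) and Sprr2a1 (-5.04). S100a11 had the largest fall of all (-6.94 ± 0.54, limma adjusted p 6.51e-05) and read 35.1 to 112 FPKM in the RA knockdown libraries. The 12 also held Wnt6, T, Hand1, Krt8 and Krt19, the interferon-inducible Gbp2 (-5.68), and Nop10 and Rps4x, which are taken up below.

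Cadherins were exchanged. Cdh1, E-cadherin, read 232, 326, 205, 249 and 304 FPKM against 12.3 and 34.9 FPKM (-3.58 ± 0.35, limma adjusted p 1.98e-04), and Cdh2, the N-cadherin of neural plate and mesoderm, 9.64, 21, 19.4, 18.7 and 12.2 FPKM against 83.5 and 38.9 FPKM (1.81 ± 0.37, adjusted p 0.00591). Cdh6, a cadherin of neural folds, read 0.156, 0.802, 0.222, 0.487 and 1.65 FPKM against 24 and 13.8 FPKM. The transcription factors of epithelial-mesenchymal transition split: Snai1, the streak repressor of Cdh1, was lower (28.8, 73, 30.2, 29.1 and 34 FPKM against 2.96 and 4.11 FPKM), and Zeb1 and Zeb2, which neural progenitors express, were higher (2.20 and 1.80). Vim overlapped (548 and 236 FPKM in the RA controls). Over the list, 4 were called higher and 5 lower of 11 kept.

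Genes of the undifferentiated state were lower in the median (-1.15), but only 6 of 23 kept members were called lower and 1 higher, and the 2 RA controls stood far apart. Pou5f1 read 689, 587, 287, 271 and 167 FPKM against 43.5 and 282 FPKM, Nanog 90.2, 77.1, 84.9, 60.4 and 33.7 FPKM against 8.65 and 59.1 FPKM, and Zfp42 67.4, 27.7, 54, 61.7 and 53.5 FPKM against 8.05 and 35.1 FPKM. In each, RA control 2 lay within the LIF-withdrawal values and RA control 1 below all of them, and of these 3 only Zfp42 was called (-1.51, limma adjusted p 0.0436). Among the RA knockdown libraries Pou5f1 ranged over 44.6 to 194 FPKM, and there the culture difference was called (-2.23, limma adjusted p 8.54e-04). Tdgf1, the Nodal co-receptor, was lower with both RA controls (282, 221, 123, 105 and 41.8 FPKM against 2.3 and 16.6 FPKM), as were Klf5 (-2.10) and Fbxo15 (-2.46). Lin28a, which neural progenitors keep, was the higher one (109, 115, 112, 103 and 84.3 FPKM against 215 and 194 FPKM).

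Of 10 primed epiblast genes 4 were higher and 2 lower. Fgf5, the marker of the primed state, read 28.1, 24.6, 13.8, 8.39 and 3.96 FPKM against 0.223 and 1.06 FPKM, so it was lower at later days in CJ9 and lowest with RA. Dnmt3b and Lef1 overlapped (-0.61 and -0.11), while Sox4 (1.56) and Cdh2 were higher. Among DNA methylation enzymes Dnmt3l, the germ-line cofactor, read 86.6, 50.4, 46.8, 32.3 and 15.5 FPKM against 1.92 and 4.32 FPKM, and the maintenance pair Dnmt1 (1.02) and Uhrf1 (1.13) were higher with RA, with 3 higher and 2 lower of the 7 listed. Ddx4, Nanos3 and Dnd1 were the 3 of 5 kept germ-cell genes (11 listed) called lower (-1.06, -1.06 and -1.38), with overlapping arms for Nanos3.

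Signalling genes changed partner by partner. In the Wnt list 6 of 18 kept members were higher and 4 lower. The secreted antagonists Sfrp5 (1.68, 0.512, 2.55, 0.915 and 1.63 FPKM against 303 and 207 FPKM), Sfrp2 (10.9, 6.33, 3.39, 2.26 and 1.46 FPKM against 82.9 and 94 FPKM) and Sfrp1 (3.56) were higher with RA, and the ligand Wnt6 was lower (33.6, 99.4, 89.8, 95.1 and 135 FPKM against 1.0 and 0.130 FPKM). Dkk1, an antagonist of another family, was also lower (-2.93). Axin2, the common Wnt target, did not pass (27.3, 35.6, 16.2, 19.8 and 14.5 FPKM against 18 and 18.4 FPKM), and Wnt5a overlapped.

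In the BMP list 8 of 15 kept members were lower and 2 higher. The BMP targets Msx1 (26.5, 49.4, 46.9, 51 and 51.7 FPKM against 4.23 and 1.19 FPKM) and Msx2 (9.72, 30.2, 49.2, 53.5 and 82.6 FPKM against 1.74 and 1.49 FPKM) were far lower with RA, and Id1 less so (-1.45 ± 0.37, limma adjusted p 0.0152). Id2 and Id3 overlapped (0.18 and 0.49). The ligand Bmp7, in contrast to Bmp4, was higher (2.4, 2.24, 5.31, 4.2 and 6.71 FPKM against 29.2 and 16.7 FPKM).

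The Nodal list gave 6 lower and 2 higher of 10. Lefty2 was lower (32.6, 25, 22.4, 33.7 and 14.2 FPKM against 0.902 and 8.1 FPKM), while its neighbour and paralogue Lefty1 read 56.3, 35.3, 27.6, 29.4 and 13.4 FPKM against 8.19 and 111 FPKM, with the highest of the 7 values in RA control 2 and the lowest in control 1. Cfc1, a Nodal co-receptor, was lower (-3.40). In the FGF list 5 of 14 were lower and 2 higher. Spry4 (-1.37) and the ligand Fgf10 (-1.71) were lower, the receptors Fgfr3 (0.648, 0.535, 1.53, 0.612 and 5.31 FPKM against 14.4 and 7.37 FPKM) and Fgfr2 (1.76) higher, and the feedback genes Dusp6 and Etv4 overlapped (-0.15 and -0.088).

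Hedgehog receptors and factors were higher: 6 of 9 kept (12 listed) and 0 lower. Boc, a co-receptor, read 0.861, 1.15, 2.68, 1.75 and 2.87 FPKM against 36.3 and 22.3 FPKM, Gli2 12.7, 14.6, 14.9, 9.75 and 11.9 FPKM against 60.2 and 69.6 FPKM, and Ptch1, receptor and target, 10.6, 8.57, 12.9, 11.8 and 16.8 FPKM against 23.8 and 43.6 FPKM. The pathway's direct readout Gli1 did not pass (4.01 and 14.7 FPKM with RA), Shh was near 0 in all 7 libraries, and Hhip was below the filter.

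Markers of other cell types were looked at for both arms. Blood and endothelial genes were mostly below the filter (12 of 20), with 4 of 8 kept lower and 0 higher. Flt1 read 9.05, 6.61, 7.7, 12.9 and 10.2 FPKM against 0.493 and 0.463 FPKM, Etv2 0.968, 3.38, 2.64, 1.37 and 2.02 FPKM against 0.204 and 0.727 FPKM, and the embryonic globins Hba-x and Hbb-bh1 reached 6.01 and 5.95 FPKM at day 6 and at most 0.233 FPKM elsewhere. The summed level of the blood list was 28.3 to 92.0 FPKM after LIF withdrawal, highest at day 6, and 28.2 and 33.1 FPKM with RA. Among 15 trophoblast genes 11 were kept, 5 were lower and 0 higher. Krt7 read 13.9, 26.2, 62.4, 88.7 and 172 FPKM against 1.17 and 1.5 FPKM and Ascl2 3.62, 1.92, 3.99, 5.52 and 33.8 FPKM against 0.0908 and 0.173 FPKM, both highest at day 6, while the placental genes Tpbpa, Prl3d1 and Psg28 were at 0 in all 7. The summed level of the trophoblast list was 939 to 1522 FPKM after LIF withdrawal and 462 and 468 FPKM with RA, most of it Bex1. The part of such cells in the difference was not tested.

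Extraembryonic endoderm genes gave 5 higher and 2 lower of 11 kept (19 listed). The defining genes Afp, Ttr, Apoa1 and Hnf4a were at most 0.321 FPKM in the RA controls, and the higher ones included Plat (3.51), Sox7 (2.27), Lama1 (2.14) and Pth1r (0.81). Their summed level was 368 to 696 FPKM after LIF withdrawal and 388 and 489 FPKM with RA. Among neural crest and glial genes 3 of 9 kept (12 listed) were higher and 1 lower. Ednrb, an endothelin receptor of crest and neural progenitors, read 0.0366, 0.167, 0.128, 0.162 and 0.179 FPKM against 71.7 and 27.2 FPKM, with Sox9 (1.66) and Tfap2b (2.12). The crest markers Sox10 and Foxd3 overlapped. Sox10 read 2.7, 1.38, 1.02, 0.634 and 0.228 FPKM against 0.135 and 0.707 FPKM, and Foxd3 14.5, 1.42, 1.11, 1.47 and 1.85 FPKM against 0.548 and 1.53 FPKM, with its high value in CJ7. Ets1 was lower (-1.72). The crest list summed to 19 to 33.5 FPKM after LIF withdrawal and to 91.6 and 48.5 FPKM with RA, most of it Ednrb.

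Interferon and antigen-presentation genes were lower as a list, with 12 of 14 kept (18 listed) called lower and 0 higher, and a median of -1.93. B2m read 27.6, 39.7, 131, 146 and 94.5 FPKM against 15.6 and 2.39 FPKM, Psmb8 11.9, 27, 46, 31.7 and 15.6 FPKM against 0.336 and 0.120 FPKM, and Isg15 5.11, 7.0, 23.1, 24.8 and 19.6 FPKM against 1.1 and 0 FPKM. The CJ9 libraries of days 5 and 6 were the highest for B2m and Isg15. Bst2 (-2.47) and Ifitm3 (-1.42) were lower too. The difference of B2m was smaller in the knockdown libraries (-1.39, against -3.29 in controls), and B2m is one of the 65 entries that stood low in RA control 2. The gap between these 2 differences was not called by the interaction test described below. A larger share of the LIF-withdrawal knockdown libraries is of day 4, at which B2m was lowest in the controls. What sets the smaller difference was not tested.

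Matrix genes gave 9 lower and 4 higher of 23 kept (29 listed). Fn1, fibronectin, read 262, 518, 555, 593 and 526 FPKM against 124 and 137 FPKM, and Col1a1 7.06, 6.01, 22.9, 15.8 and 33.4 FPKM against 3.99 and 1.39 FPKM, although Col1a1 was not lower in the RA knockdown libraries (6.64 to 22.3 FPKM, 0.082). For Col1a1 the gap between the culture differences of controls and knockdowns was not called (limma interaction adjusted p 0.301). Ctgf, a serum-responsive gene, did not pass (0.73). Among immediate early genes 6 of 13 kept (15 listed) were lower and 1, Egr2, higher. Junb read 72.3, 157, 81.1, 75.8 and 86.4 FPKM against 7.18 and 8.04 FPKM, Fos 4.75, 5.92, 4.87, 2.87 and 10.3 FPKM against 1.06 and 0.963 FPKM and Ier3 12.3, 9.9, 10.6, 13.2 and 14.4 FPKM against 0.873 and 1.38 FPKM, while Egr1 overlapped. Fos stood at 2.36 to 3.85 FPKM in the RA knockdown libraries, with a culture difference of -0.58 there against -1.66 in controls.

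Of 32 cholesterol and fatty acid genes, all kept, 5 were higher and 5 lower, with 22 not called. Hmgcs1 and Sqle differed by -0.28 and 0.35. The desaturase Fads1 read 17.5, 18, 19.5, 18.6 and 17.8 FPKM against 71.2 and 55.7 FPKM, and Fdft1 was lower (-1.58). A sterol regulatory element (TCACNCCAC, both strands) was found in 1 of 20 promoters of the list, that of Hmgcs1, against 1.44% of all. Hypoxia and glycolysis genes gave 6 lower and 2 higher of 19 kept (21 listed), with a median of -0.57 and 9 members with both RA values below every LIF-withdrawal value. With the RA knockdown libraries in place of the RA controls 11 were lower, and with the GC trend described below removed 9 were lower, beside 7 among the same entries without that step. In the controls Ldha read 719, 865, 755, 675 and 674 FPKM against 253 and 258 FPKM and the glucose transporter Slc2a3 347, 359.6, 711, 733 and 839.9 FPKM against 107 and 172 FPKM, with Slc2a1 overlapping (0.32). Slc2a3 stood at 201 to 249 FPKM in the RA knockdown libraries, with a culture difference of -0.96 there against -2.04 in controls. The summed level of the hypoxia and glycolysis list went the other way. It was 10194 to 11321 FPKM after LIF withdrawal and 11744 and 14456 FPKM with RA, so the list is not lower in total.

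In the integrated stress list 5 of 18 were higher and 2 lower (median 0.27), but the knockdown libraries did not repeat this. Between those, 2 were higher and 6 lower (median -0.34). With the RA knockdown libraries in place of the RA controls, 2 were higher and 9 lower. Atf4 read 44.8, 89.2, 68.4, 76.7 and 63.7 FPKM against 135 and 133 FPKM, Chac1 differed by 1.24 and Sesn2 by 1.34, and none of these 3 was called in the knockdown libraries (-0.061, -0.12 and 0.052). The gap between the culture differences of controls and knockdowns was not called at any of them (limma interaction adjusted p 0.215, 0.415 and 0.279). The cystine transporter Slc7a11 was lower (4.21, 3.99, 8.96, 12.7 and 7.79 FPKM against 0.640 and 0.0933 FPKM). It stood at 2.06 to 3.56 FPKM in the RA knockdown libraries, with a culture difference of -1.28 there against -2.57 in controls. Of 15 p53 targets 4 were higher and 6 lower. Cdkn1a overlapped (0.44) and Mdm2 was lower (-0.91), as was Perp, a desmosome gene of epithelia as well as a p53 target (94, 55.4, 39.8, 69.1 and 60.0 FPKM against 4.96 and 4.96 FPKM).

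Cell cycle genes gave 5 higher and 3 lower of 21. Ccnd2, the cyclin of neural progenitors, read 5.87, 5.37, 5.97, 5.22 and 5.23 FPKM against 77.5 and 66.2 FPKM (3.48 ± 0.15, limma adjusted p 6.84e-06), while Ccnb1 (-1.56) and Ccna2 (-1.56) were lower and Mki67 overlapped. Of 18 kept imprinted genes (20 listed) 4 were higher and 4 lower. Mest read 46, 31, 94.8, 145 and 183 FPKM against 589.6 and 351 FPKM and Nnat 66.4, 26.3, 28.8, 48.4 and 40.9 FPKM against 3.39 and 2.17 FPKM, in opposite directions. Igf2, a fetal growth factor, was higher at later days of LIF withdrawal (36.9, 69.6, 453, 748 and 2294 FPKM) and was not called against RA (63.7 and 35.8 FPKM).

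**Figure D3:**
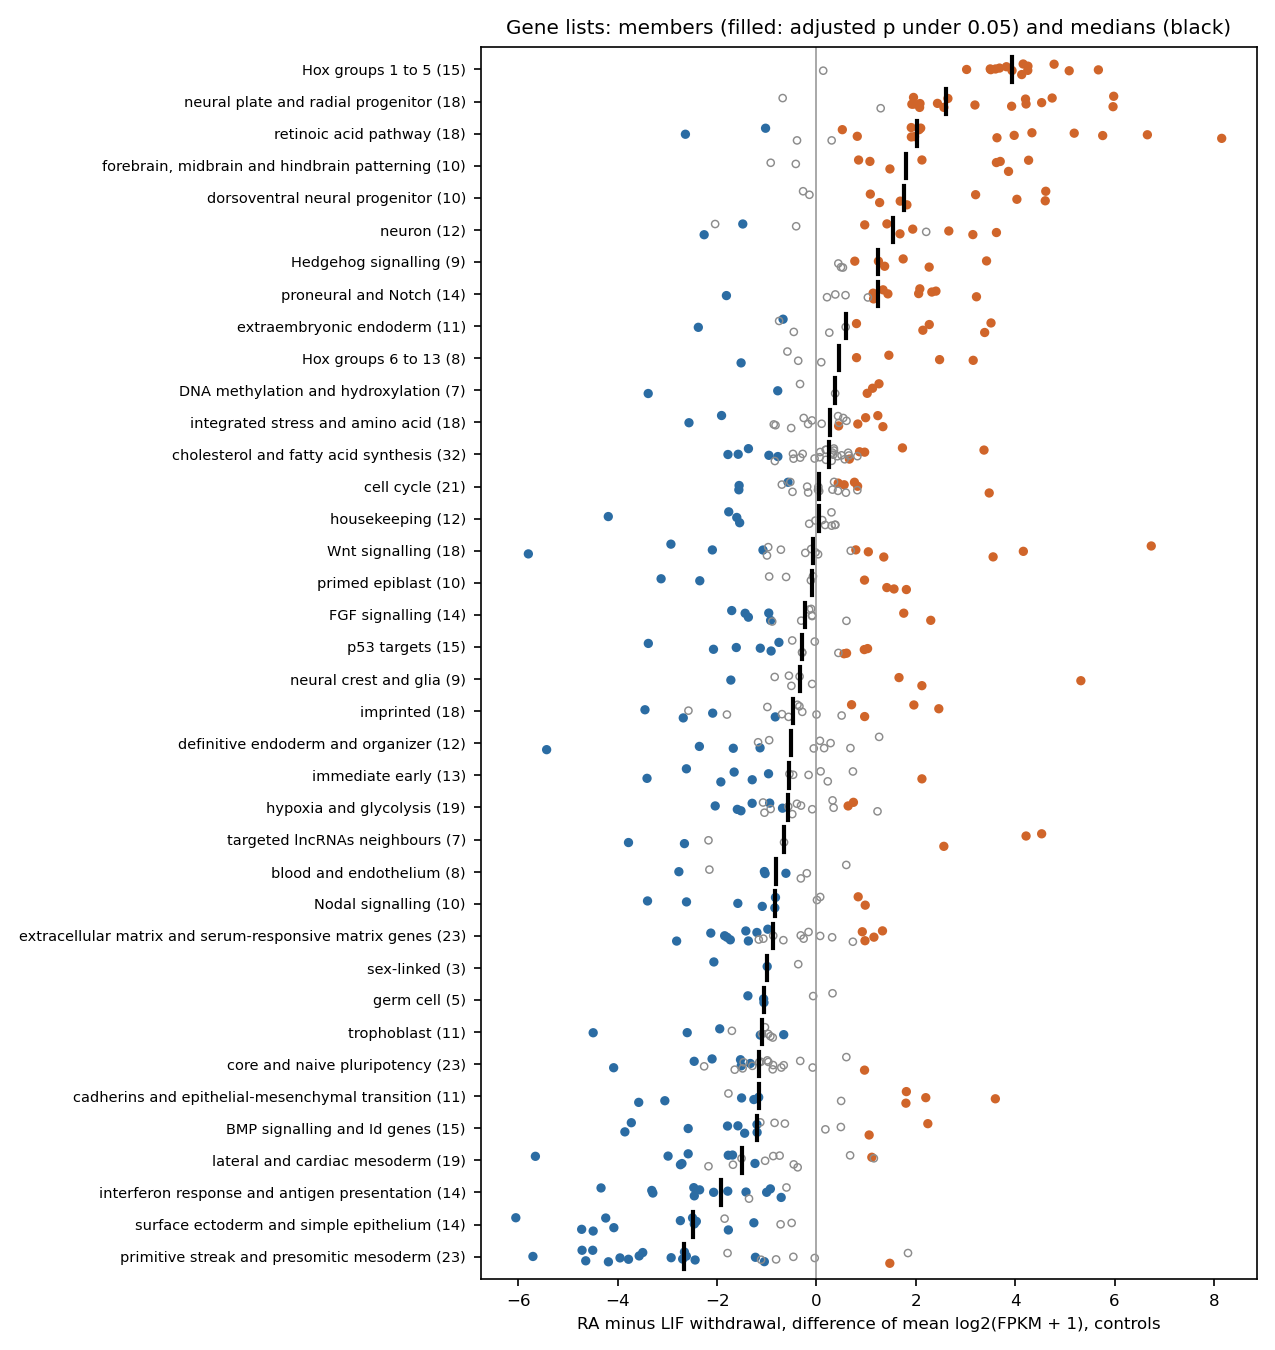
Difference between arms (RA minus LIF withdrawal, x axis, log2 units) of every kept member of 38 gene lists (rows, number kept in brackets), filled where the limma adjusted p is under 0.05 (orange higher with RA, blue lower), with the list median as a black bar. Medians run from 3.94 for Hox groups 1 to 5 down to -2.66 for the streak genes, beside -0.0096 over all entries.

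Some large differences were at genes of the X and Y chromosomes. Hprt, a housekeeping enzyme (chrX:50341255-50374837), read 23.9, 22.3, 16.4, 16.3 and 15.5 FPKM in CJ7 and CJ9 and 0.0747 and 0.0711 FPKM in the 46c controls, and at most 0.426 FPKM in the RA knockdown libraries. The parent of 46c is known to lack Hprt. Mid1, at the edge of the pseudoautosomal region of the X chromosome, read 4.48, 5.6, 4.03, 3.74 and 4.3 FPKM against 367 and 411 FPKM, and the entry Fxy, an older name of Mid1 that covers part of the same locus, was also among the 12 largest rises (6.92). The Y-linked Ddx3y and Eif2s3y read 0.399 to 1.9 and 1.5 to 8.39 FPKM after LIF withdrawal and at most 0.0286 FPKM with RA, and Xist was at most 1.33 FPKM in all. The RA knockdown libraries had at most 0.0409 FPKM of Ddx3y, 0.226 FPKM of Eif2s3y and 351 to 480.1 FPKM of Mid1. For such entries the culture cannot be told apart from the line. The remaining largest rises were Ptn, a growth factor of neural progenitors (0.549, 1.49, 0.571, 0.527 and 0.237 FPKM against 175 and 111 FPKM), Sfrp5, Crabp1, Crabp2, Sox1, Pax6, Stra6, Stra8, Hoxd3 and Ednrb.

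Other large falls were abundant genes needed in every cell. Rps4x, a ribosomal protein, read 574, 524, 1208, 1231 and 606 FPKM after LIF withdrawal and 27.2 and 15.6 FPKM in the RA controls, but 114 to 369.9 FPKM in the RA knockdown libraries. Nop10, a component of ribosomal RNA processing, read 129.6, 95.8, 179, 166 and 71.1 FPKM against 1.87 and 1.52 FPKM and 1.02 to 14.4 FPKM in the RA knockdown libraries, with a median of 2.68 FPKM there. Of 12 housekeeping genes, Hprt, Eef1a1 (6266, 5562, 7129, 6588 and 6223 FPKM against 2893 and 1198 FPKM), Ppia (-1.60) and Ywhaz (-1.55) were called lower and 0 higher, while Actb (0.12) and Tbp (0.30) were not called. Eef1a1 and Ywhaz were not called between the knockdown libraries (-0.33 and -0.28).

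The same cultures were compared in the 12 knockdown libraries, 7 of LIF withdrawal and 5 of RA, which share no library with the controls. There 30.4% of the 13859 entries were called higher with RA and 28.0% lower. Of the 5549 control calls, 4811 (86.7%) were called in the same direction and 11 in the opposite one, and these 4811 are 59.5% of the 8087 knockdown calls. Line and medium differ there in the same way. All 16 neural plate genes called in controls were called higher there too, as were 14 of 14 anterior Hox genes, and 16 of the 17 streak genes were called in the same direction. With the 5 RA knockdown libraries set against the 5 LIF-withdrawal controls instead, an alternative added after the data were seen, 16 of 18 neural plate genes and 14 of 15 anterior Hox genes were higher, and 17 of 23 streak, 13 of 14 epithelial and 13 of 14 interferon genes were lower. In that comparison 15 of 23 pluripotency genes were lower, against 6 with the RA controls.

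The size of the culture difference itself was tested between controls and knockdowns by an interaction term in limma over all 19 libraries. It was called at 18 entries (0.130%), 14 of them with regular gene names. At 7 of these genes, all below 1 FPKM in every LIF-withdrawal control, the RA controls were above the RA knockdown libraries. They passed the filter, which reads the controls alone, only through the RA controls, so the filter favours that direction and their number is a description. They were Pax2 (3.70 against 2.12), Hes3 (4.60 against 3.15), Hoxb5 (3.68 against 1.81), Neurog1 (1.44 against 0.25), and Prdm12, Prdm13 and Foxe3. With the filter applied to all 19 libraries, an alternative added after the data were seen, 21 of 14942 entries were called (0.141%), among them all 18. Stmn2, Hoxb6, Twist1, Tbx6, Col1a1, Fos, Slc2a3, Slc7a11, Atf4, Chac1, Sesn2, B2m, Eef1a1 and Ywhaz, compared with the knockdown libraries above, were called with neither filter. Myc, a growth regulator, read 36.5, 36.7, 29.7, 36.1 and 28.5 FPKM after LIF withdrawal and 35.2 and 25.1 FPKM in the RA controls, with no call (-0.16), but 7.06 to 11.1 FPKM in the RA knockdown libraries, where the culture difference was -1.99 (limma adjusted p 9.57e-08). Rps4x, Rps25, Magoh, Emc2 and Tmem50a were further down in the controls than in the knockdowns, and Mgst1, a glutathione transferase, was lower with RA in controls (-0.90) and higher in knockdowns (1.24). Hes3, Emc2, Magoh, Mgst1, Rps25, Tmem50a, Prdm12, Prdm13 and Foxe3 were named after their values were seen.

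**Figure D4:**
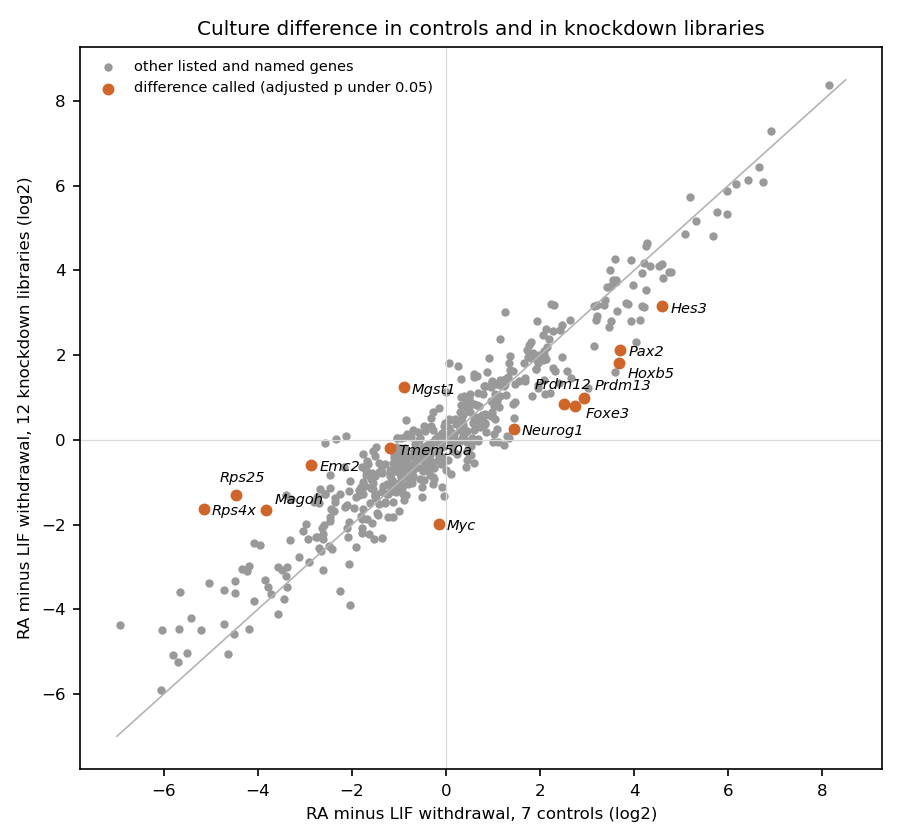
Culture difference (RA minus LIF withdrawal, log2 units) in the 7 controls on the x axis and in the 12 knockdown libraries on the y axis, 1 point per listed or named gene, with the line of equal values. Orange points, named, are the 14 genes at which the difference between the 2 effects has an adjusted p under 0.05, with Rps4x, Rps25 and Magoh further down in controls and Myc lower in knockdowns alone.

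The culture difference moved with base composition. Of the entries kept, 11776 (85.0%) had a transcript of the same symbol in GENCODE M21, from which GC content was taken. In the lowest of 5 equal bins of GC content (up to 44.6%) the median difference was -0.39, 8.11% were called higher and 28.0% lower. In the highest bin (from 56.1%) it was 0.36, with 35.9% higher and 13.3% lower. RA control 2 against RA control 1 showed a smaller slope of the same sign (-0.11 to 0.10), and day-5 control 2 against 1 one of the opposite sign (0.13 to -0.070). With each library's trend on GC removed, an alternative added after the data were seen, 4674 entries were called against 4928 of the same entries without that step, with p-values adjusted over these entries alone in both. The neural plate list then had 16 higher, the anterior Hox list 14 higher, the streak list 17 lower, the epithelial list 12 lower and the interferon list 12 lower, beside 16, 14, 16, 11 and 12 before. The Hox list of groups 6 to 13 went from 4 to 2 higher and the integrated stress list from 6 to 2 higher among the same entries. The pluripotency list went from 8 to 4 lower. The median GC content was 55.0% in the neural plate list, 57.0% in the streak list and 50.5% over all entries with a value. What sets the trend with GC content, and its part in the list differences, was not tested.

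**Figure D5:**
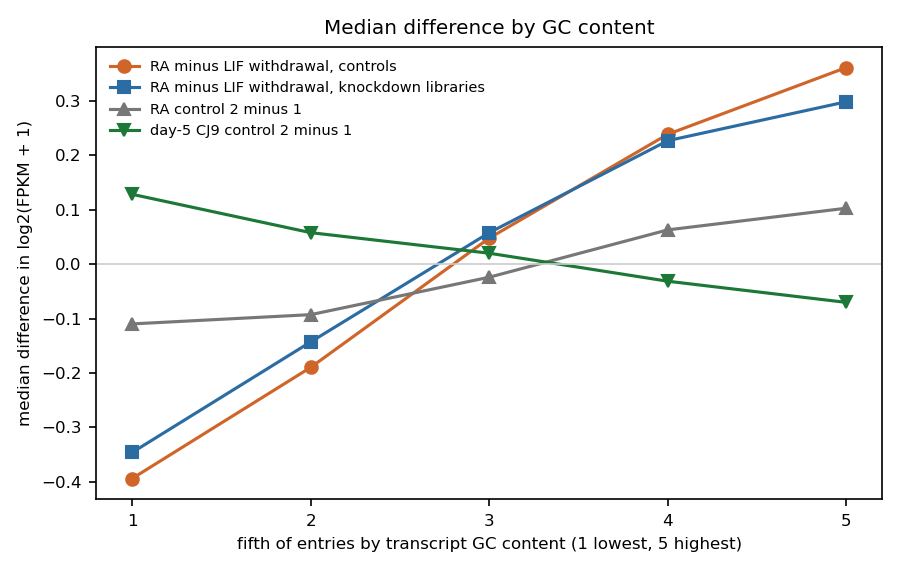
Median difference in log2(FPKM + 1) (y axis) in 5 equal bins of entries by transcript GC content (x axis), for RA minus LIF withdrawal in controls and in knockdown libraries and for the 2 pairs of like-labelled controls. The control and knockdown lines climb together from -0.39 and -0.35 in the lowest bin to 0.36 and 0.30 in the highest.

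Libraries with the same label were compared by fold alone, 1 library against 1, so these counts are not on the scale of the calls above. Where either of the pair reached 5 FPKM, RA control 2 differed from RA control 1 by 2-fold or more at 452 of 8548 (5.29%), 231 of them higher in control 2. The 2 CJ9 day-5 controls differed so at 132 of 8975 (1.47%). Where 1 FPKM was asked for instead, the shares were 10.5% and 4.93%. These pairs have no test, and the labels do not say whether they are separate cultures, so the p-values above measure the spread between these libraries.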

How the data were processed

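Poly(A) RNA was sequenced from 19 libraries (stranded mRNA libraries from total RNA, per the labels' protocols), of which the 7 with a control hairpin are compared. The authors deposited 1 table of FPKM values for 38424 entries, 11588 of them unnamed loci; CASAVA and TopHat2 2.0.11 and the builds mm10 and mm9 are listed, per the submitters' processing notes. For the quantifier, annotation, strand setting and number of reads nothing is stated: they are not given in the sources used. Of 21399 entries matched by symbol, 11.6% overlapped that gene in GRCm38, and 116 entries lie on random chromosomes, so the table's coordinates were read as mm9. Absolute depth is unknown; relative depth was read from the steps between values under 0.05 FPKM.

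An entry was kept (13859 were) when 2 or more of the 7 libraries reached 1 FPKM. Arms were compared with limma 3.58.1 (R 4.3.3) on log2(FPKM + 1), with a trended variance and Benjamini-Hochberg adjustment over all kept entries. The step was tested on simulated data. This scale understates changes of low genes. The labels do not say that libraries of a group are separate cultures. No depth or counting interval can be given for FPKM.

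The comparison, its members and the gene lists were chosen with earlier results of these data known. The text names the 4 markers, the 12 largest rises and 12 largest falls, and of each list its first 3 members and its up to 4 called members with the largest change; some of these genes are not reported here. Chosen after their values were seen were Acta2, Cdx2, Dkk1, Dll3, Emx2, Hoxa7, Hoxb5, Hoxc4, Hoxd1, Id2, Id3, Krt14, Krt17, Lama1, Lhx2, Lin28a, Meis1, Meis2, Myc, Nes, Neurog1, Nkx2-9, Nkx6-1, Nkx6-2, Pou3f1, Pou3f3, Pth1r, Rara, Rarg, Rdh10, Rxra, Thbs1, Twist1, Wnt3a, Wnt8a and Zeb2, the interaction genes named as such, and the list members given only as below the filter. Alternatives were another pseudocount, other filters and scalings, other sets of libraries, a replicate block and, added after the data were seen, both GC settings and the RA knockdown libraries in place of the RA controls. Transcript GC content came from GENCODE M21. Promoter windows came from RefSeq (GRCm38.p6). Besides the elements named in the report, the T-box element (TCACACCT) was searched: it was found in 1.48% of all promoters and in 1 of 18 of the streak list (Mesp1).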

Additional observations from a re-analysis of the deposited data

Results flagged for a closer look

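A difference of the culture effect between control and knockdown libraries was found by the interaction test at 14 genes with regular names; values are the effect in controls minus that in knockdowns, in log2 units with the standard error, and limma adjusted p over all entries. The culture effect was larger in controls for Pax2 by 1.58 ± 0.19 (adjusted p 0.00106), Prdm12 by 1.66, Hes3 by 1.45, Neurog1 by 1.18, Prdm13 by 1.96, Foxe3 by 1.94 and Hoxb5 by 1.88. These 7 were kept through the RA controls alone, the libraries in which they are high, so the filter favours this direction. Hoxb5 read 13 and 15.3 FPKM in the RA controls and 1.26 to 4.15 FPKM in the RA knockdown libraries, so these did not overlap. Prdm12, a factor of dorsal and visceral neurons, read 5.29 and 4.17 against 0.332 to 1.27 FPKM, and Foxe3 6.07 and 5.34 against 0.0682 to 1.57 FPKM.

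Myc gave 1.83 ± 0.24 (adjusted p 0.00153), with 26.7 to 45.1 FPKM in the LIF-withdrawal knockdown libraries. The genes lower in the RA controls than in the RA knockdown libraries were Rps4x (-3.52 ± 0.52), Rps25 (-3.17), Emc2 (-2.27), Magoh (-2.16), Mgst1 (-2.14) and Tmem50a (-0.98). Rps25 and Magoh are among the 65 entries that stood low in RA control 2, and the lowest of the other 18 libraries was RA control 1 for both. The hairpins differ between these libraries, as does the mix of days in LIF withdrawal, and what sets the differences was not tested. No set of control libraries of 1 line, day and culture holds the 4 or more libraries that a search for single outlying values needs.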

How the results depend on the processing

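Pseudocount, filters, scalings and the variance trend left the count of called entries within 1.5 times of 5549, and it moved further with the libraries that entered. Fitting a mean for each of 12 groups to all 19 libraries called 8873 entries (4381 higher, 4492 lower), and setting all 12 LIF-withdrawal against all 7 RA libraries called 9181 (4683 higher, 4498 lower). Day-5 controls alone against the RA controls called 7502, with 4012 lower. Leaving out 1 library at a time called 2449 to 6190 entries (1379 to 3136 higher, 1070 to 3054 lower), lowest without an RA control, when 1 RA library remains and is assumed to vary like the other arm. Of the named genes, 45 lost their call without RA control 1 and 42 without RA control 2, and Hand1 was not called in either (-5.69 and -5.62, within a range of -6.37 to -5.16 over the libraries left out). With the GC trend removed, 3858 of the 5549 calls were made again in the same direction among the 85.0% of entries that could be used.

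The numbers 1 and 2 of the day-5 and RA controls only name libraries of different experiments; with the replicate block on these 4 libraries 6861 entries were called, against 7502 without it. Asking for 1 FPKM gave 1353 entries 2-fold apart between the RA controls and 653 between the day-5 controls, and asking for 4-fold at 5 FPKM gave 101 and 18. The knockdown comparison gave 6237 to 8392 calls over its alternatives.

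The sign changed at the genes that follow, of which Chac1, Hoxb6, Mgst1 and Thbs1 were called, and the cause was not tested: with the RA knockdown libraries in place of the RA controls, Acta2 (0.41), Axin2 (0.067), Cdkn1a (-0.054), Chac1 (-0.072), Dusp6 (0.20), Foxa2 (-0.027), Hmgcs1 (0.41), Hoxb6 (-0.18), Hoxb9 (-0.077), Hoxd1 (-0.25), Id3 (-0.33), Lef1 (0.013), Mgst1 (0.96), Nkx2-9 (0.23), Nkx6-2 (0.67), Otx2 (0.11), Pou3f1 (0.018), Thbs1 (0.035); with day-4 LIF-withdrawal controls only, Actb (-0.10), Cdkn1a (-0.062), Foxa2 (-0.13), Lefty1 (-0.51); with day-5 controls only, Axin2 (0.025), Dusp6 (0.11), Egr1 (0.28), Etv4 (0.22), Lef1 (0.25), Nkx2-9 (0.14); with all 12 against all 7 libraries, Cdkn1a (-0.16), Hmgcs1 (0.35), Hoxb9 (-0.45), Hoxd1 (-0.073), Id3 (-0.094), Mgst1 (0.59), Nkx6-2 (0.49); with the GC trend removed, Foxa2 (-0.23), Hmgcs1 (0.078), Hoxb9 (-0.048), Hoxd1 (-0.11), Lef1 (0.11), Lefty1 (-0.26), Xist (0.029). In the fit with the replicate block the same day-5 values hold. Leaving out 1 library gave these ranges: Actb -0.0045 to 0.24, Dusp6 -0.43 to 0.12, Etv4 -0.46 to 0.29, Foxa2 -0.39 to 0.52, Gli1 -0.29 to 1.36, Hmgcs1 -0.74 to 0.19, Hoxb9 -0.033 to 0.23, Id2 -0.066 to 0.43, Id3 -0.16 to 1.14, Lef1 -0.94 to 0.72, Lefty1 -1.73 to 1.88, Myc -0.40 to 0.078, Nkx2-9 -0.48 to 0.11, Nkx6-2 -0.84 to 0.56, Otx2 -1.90 to 0.061, Rarg -1.14 to 0.36, Vim -0.11 to 1.10. The deposited unit limits precision: FPKM carry no counts, so genes near 1 FPKM have unknown counting error, and 2 RA libraries set the power of each call.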

Other observations

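The nearest coding neighbours of the targeted non-coding RNAs fell on both sides in controls alone. Nr2f1, Sox21 and Pou3f3 were higher with RA (5.86 and 5.38 FPKM of Pou3f3 against 0.0723 to 0.191 FPKM), and Evx1 and Lhx1 were higher after LIF withdrawal (6.06 to 24.3 FPKM of Lhx1 against 1.3 and 1.43 FPKM). Of the unnamed loci, 969 were kept and 316 were called.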
